A study of Mus musculus with 6 samples.

Results

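Serum amyloid A, lipocalin 2, lactoferrin, haptoglobin, ceruloplasmin, orosomucoid, secretory leukocyte peptidase inhibitor and the leucine-rich glycoprotein Lrg1 are secreted proteins of the acute phase and of epithelial defence, and their transcripts were followed here in the small intestine of mice with and without Cftr, the chloride and bicarbonate channel whose loss causes cystic fibrosis. The members were taken by gene symbol: every probe set whose single symbol was 1 of 10 listed genes, of 8251 genes named on the array. A probe set is the group of probes on an Affymetrix array that reads 1 transcript. Of the 10 genes, 9 had at least 1 probe set and together they had 14; no probe set carried the symbol Saa1 alone.

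Total RNA of 3 control (Cftr +/+) and 3 null (Cftr -/-) mice was hybridized, 1 mouse to each of 6 arrays; where nothing else is said, values are listed in the order of replicates 1, 2 and 3. The mice were 40 days old, congenic on the black6 background, and controls as well as nulls had eaten Peptamen since they were 10 days old, as a guard against blockage of the intestine. The whole length of the small intestine went into each sample, so that epithelium, muscle, blood and immune cells were read together, and fewer cells of a type cannot be told apart from less RNA per cell. Each group held 2 males and 1 female, the females being control replicate 3 and null replicate 2. Which part of the gene was altered in the null mice is not given in the labels. In null mice the brightest Cftr probe set lay between 295.6 and 368.5, and in controls between 801.6 and 1017.5. Values are scaled intensities in arbitrary units, whose 2%-trimmed mean was 500.3 on these arrays. The actin probe set at the 3' end read 1.117 to 1.201 times the one at the 5' end, and that of Gapdh 0.749 to 0.826 times.

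In an infection or injury, interleukin 6 signals through the transcription factor STAT3, and interleukin 1 and tumour necrosis factor through NF-kB, to raise the synthesis of acute phase proteins, most of them in liver. Factors of the C/EBP family act at many of the same genes. Epithelium of the gut makes several of these proteins itself, where they bind iron, retinol, lipid or bacterial products, or restrain proteases, while lactoferrin and lipocalin 2 are also stored in the granules of neutrophils.

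Of these genes, Lrg1, Saa3 and Ltf rose in null mice, Lrg1 by far above its control level. Saa3 and Ltf rose from levels too dim to give more than a lower bound on the fold. Of the other settings that tested them, Lrg1 passed in 16 of 16, Saa3 in 13 of 15 and Ltf in 8 of 15. Both Saa2 probe sets were higher in every null mouse than in every control but did not pass the test. One Lcn2 probe set showed the same separation at a dim level and the other did not differ. Hp stood at nearly the same level in all 6 mice, Slpi overlapped between the groups on its 4 probe sets, and Cp and Orm1 were dim.

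Null and control were compared with limma on log2(value + 12), fitted over all 7601 probe sets that were above 109.7, the 40th percentile of all values, on at least 3 of the 6 arrays; p-values are adjusted over these (Benjamini-Hochberg, threshold 0.05). Of the 14 probe sets 10 were tested, and 3 of them were called higher and 0 lower. Over all probe sets tested, 1.13% were called higher and 1.87% lower. Saa3 and Ltf were above the filter level in the 3 null mice and in 0 of 3 controls, so they entered the test only because they differed, and the count of 3 is given as a description. The null mice were separate from the controls, all above them, on 5 of the 10 probe sets tested and on 1 of the 4 not tested. The 5 include Saa3, Ltf and both Saa2 probe sets, and the members were chosen with earlier results of these data known. This count too is therefore a description. Over all probe sets tested, the share separate in this way was 13.1%. Among the 12422 probe sets with or without the filter, that share was 10.4%.

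**Figure D1:**
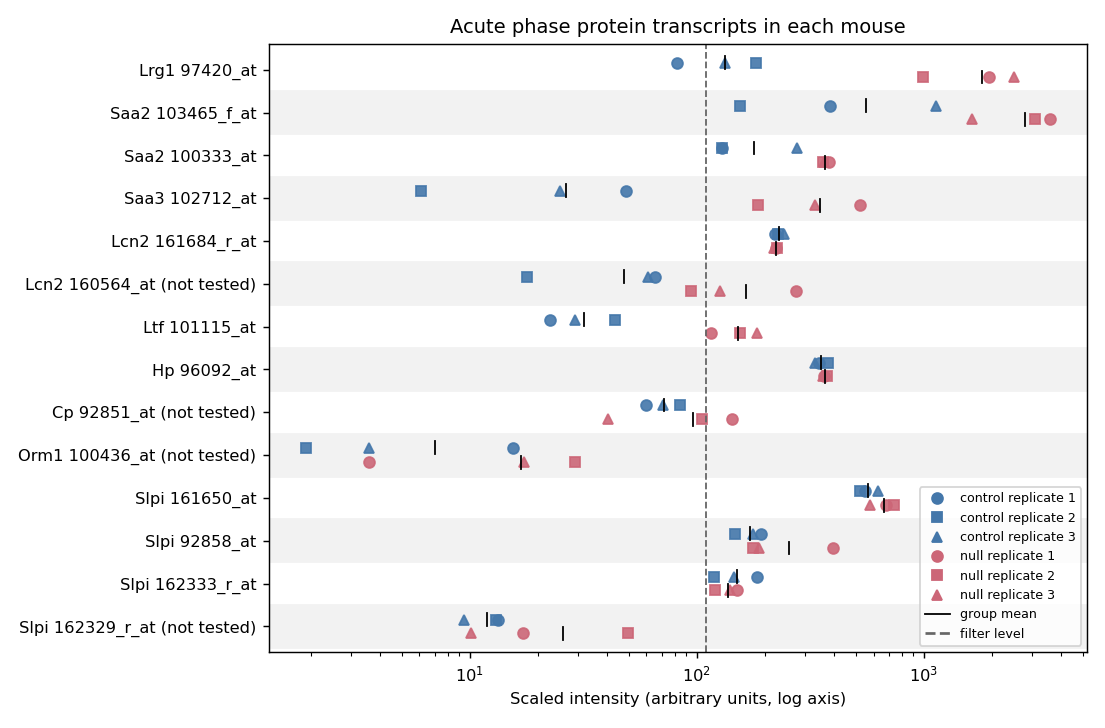
Scaled intensity of the 14 probe sets in each mouse (log axis, arbitrary units), with controls in blue above nulls in red, a black tick at each group's mean of 3 mice and the filter level of 109.7 as a dashed line. All 3 null values lie to the right of the controls for Lrg1, both Saa2 probe sets, Saa3, Lcn2 160564_at and Ltf, whereas on the other probe sets the groups overlap.

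Lrg1 is a secreted glycoprotein with leucine-rich repeats, made by liver in the acute phase and by epithelium and neutrophils, and known to bind the TGF-beta co-receptor endoglin. Its single probe set read 81.6, 182.8 and 133.1 in controls and, in nulls, 1941.2, 988.2 and 2484.0. The lowest null value, that of the female, was 5.41 times the highest control value. Controls averaged 132.5 ± 50.6 (SD, n = 3) and nulls 1804 ± 757 (SD, n = 3), a difference of 3.62 on the log2 scale (SE 0.37, 95% interval 2.75 to 4.48, limma adjusted p = 0.0044). Lrg1 was called under each of 16 other settings, among them those that left out 1 mouse, with adjusted p between 0.00208 and 0.0323.

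The serum amyloid A genes encode small lipoprotein-bound proteins that carry lipid and retinol. Saa1 and Saa2 are the main acute phase forms of liver, and Saa3 is made largely outside it, by epithelium, macrophages and fat cells. In the RefSeq gene table Saa1 lies between the pseudogene Saa-ps and Saa2, and Saa3 next to Saa4. The same table lists Saa1 as an older name of Saa2 and Saa2 as an older name of Saa1, so that a probe set named Saa2 may read either transcript. The 250 bases before the annotated starts of Saa1 and Saa2 are 94.8% identical over 251 aligned columns, against 52.2% for Saa1 and Saa3 over 295 columns and 52.4% for Saa2 and Saa3 over 290. These windows, and those of the 2 other genes that rose, are shown because the members moved unequally; they are from RefSeq (GRCm38.p6), 5′ to 3′ on the gene's strand, with each match to the C/EBP-type letters TTGCNNAA on either strand in capitals.
Saa1 (chr7:46742981-46743230, minus strand): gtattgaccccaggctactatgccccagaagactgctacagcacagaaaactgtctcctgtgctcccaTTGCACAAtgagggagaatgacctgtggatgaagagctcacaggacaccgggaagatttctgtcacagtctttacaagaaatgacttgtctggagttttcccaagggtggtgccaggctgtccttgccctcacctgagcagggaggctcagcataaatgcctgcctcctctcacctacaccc
Saa2 (chr7:46751583-46751832, plus strand): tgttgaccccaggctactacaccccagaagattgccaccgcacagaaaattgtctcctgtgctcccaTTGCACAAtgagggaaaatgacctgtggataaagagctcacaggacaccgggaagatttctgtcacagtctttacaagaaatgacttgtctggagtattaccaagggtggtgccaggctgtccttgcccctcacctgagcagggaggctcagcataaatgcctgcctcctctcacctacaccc
Saa3 (chr7:46715677-46715926, minus strand): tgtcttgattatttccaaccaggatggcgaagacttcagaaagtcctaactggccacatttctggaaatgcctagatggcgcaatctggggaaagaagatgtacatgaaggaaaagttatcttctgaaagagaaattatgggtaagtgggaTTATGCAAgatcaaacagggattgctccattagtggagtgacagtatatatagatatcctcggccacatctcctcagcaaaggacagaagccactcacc
Lrg1 (chr17:56121947-56122196, minus strand): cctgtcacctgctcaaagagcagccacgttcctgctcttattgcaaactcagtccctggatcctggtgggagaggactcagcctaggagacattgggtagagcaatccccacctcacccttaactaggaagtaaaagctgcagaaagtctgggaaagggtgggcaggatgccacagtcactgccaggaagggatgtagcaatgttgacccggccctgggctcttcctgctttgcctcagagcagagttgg
Ltf (chr9:111019042-111019291, plus strand): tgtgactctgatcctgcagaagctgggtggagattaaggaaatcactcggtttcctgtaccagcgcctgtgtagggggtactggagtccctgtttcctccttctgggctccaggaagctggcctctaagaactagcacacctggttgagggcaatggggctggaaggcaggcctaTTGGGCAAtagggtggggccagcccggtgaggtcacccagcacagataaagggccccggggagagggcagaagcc

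The C/EBP-type match of Saa1 begins 182 bases before the annotated start and that of Saa2 183 bases before it, with the same letters, TTGCACAA. Saa3 has its match at 99 bases and Ltf at 75 bases before the start, and Lrg1 has none in its window. Windows were found for 8 of the 10 members, 9 windows in all since Cp has 2 starts. Of the 9, 7 held the letters, as did 9.56% of all 32851 windows of that length in the table. Beside Saa1 and Saa2, whose windows are nearly the same, Saa3 and Ltf, these were windows of Lcn2, Cp and Slpi. The NF-kB-type letters, GGGA and CC with 4 free bases between them, were in 1 of the 9 (a Cp window) and in 17.6% of all, and the STAT-type letters TTCNNNGAA in 0 of the 9 and in 7.02% of all. The 3 motifs were chosen after the windows had been seen, so the counts are a description and not a test against all windows. A match describes letters, not a bound site.

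Saa3 was at 48.8, 6.1 and 24.9 in the controls and at 524.3, 185.8 and 331.9 in the nulls. Every control value was under the filter level and every null value above it, with the female again the lowest of the nulls. The means were 26.6 ± 21.4 (SD, n = 3) and 347.3 ± 169.8 (SD, n = 3), and against the filter level Saa3 was at least 2.73-fold higher in nulls (log2 difference 3.27, SE 0.53, limma adjusted p = 0.0199). With no filter the adjusted p was 0.03. Without null replicate 1 the call was lost (adjusted p = 0.101), as it was when null replicate 3 was left out (adjusted p = 0.0892).

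The brighter Saa2 probe set, 103465_f_at, read 385.7, 154.6 and 1127.5 in controls and 3602.9, 3102.1 and 1629.9 in nulls. The f in its name marks probes shared within a family of like sequences. Controls differed widely among themselves, the female having the highest value, and the lowest null value was 1.45 times that of this mouse. The difference was 2.65 on the log2 scale (SE 0.63, 95% interval 1.18 to 4.11, limma adjusted p = 0.0755).

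The second Saa2 probe set, 100333_at, read 129.0, 128.5 and 276.1 in controls and 380.4, 360.4 and 364.7 in nulls. The female control was again the highest of its group, and the nulls lay close together. The difference was 1.09 (SE 0.28, 95% interval 0.44 to 1.74, limma adjusted p = 0.0913), smaller than on the brighter probe set. Without control replicate 3, the female, both Saa2 probe sets passed (adjusted p = 0.0186 for 103465_f_at and 0.0118 for 100333_at), and in males alone, 2 against 2, they did so too (adjusted p = 0.0371 and 0.0282). Over the 16 other settings, 103465_f_at was called in 3 and 100333_at in 2, with limma adjusted p up to 0.224 and 0.25.

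Lcn2 is a lipocalin that withholds iron from bacteria by binding their siderophores, and it is made by inflamed epithelium as well as by neutrophils. Its probe set 160564_at was at 65.1, 17.9 and 60.8 in controls and at 273.5, 94.5 and 126.7 in nulls. The groups did not overlap, but the probe set was above the filter level in 2 mice and was not tested; with no filter its adjusted p was 0.223. Against the filter level the null mean on the log2 scale was at least 1.33-fold higher. The other Lcn2 probe set, 161684_r_at, gave 219.9, 228.6 and 241.4 in controls and 223.9, 225.3 and 219.0 in nulls. It did not move with the first, with a log2 difference of -0.04 (95% interval -0.37 to 0.28, limma adjusted p = 0.908). The r in its name marks probes picked with some selection rules dropped.

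Ltf encodes lactoferrin, an iron-binding protein of secretions and neutrophil granules. Its values were 22.5, 43.7 and 29.1 in controls and 114.9, 154.9 and 183.5 in nulls. All were dim, the nulls standing just above the filter level and the controls below it. Ltf was at least 1.32-fold higher in nulls against that level (log2 difference 1.90, SE 0.36, 95% interval 1.06 to 2.75, limma adjusted p = 0.0368; 0.0305 with no filter). The call was lost when 1 mouse was left out, except for control replicate 2 (adjusted p up to 0.176), in males alone (0.177) and with sex in the model (0.0556).

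Hp encodes haptoglobin, which binds free haemoglobin. It was at 346.9, 377.9 and 331.4 in controls and at 362.9, 374.3 and 360.2 in nulls, a narrow range in all 6 mice. The log2 difference was 0.06 with a 95% interval of -0.23 to 0.34 (limma adjusted p = 0.857), an interval far below the difference measured for Lrg1.

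Cp encodes ceruloplasmin, the copper-carrying ferroxidase of plasma, and Orm1 the carrier protein orosomucoid. Cp was at 59.9, 84.3 and 70.7 in controls and at 142.4, 105.8 and 40.7 in nulls. Its null mice fell on both sides of the controls. Orm1 was at 15.5, 1.9 and 3.6 in controls and at 3.6, 29.2 and 17.4 in nulls, far under the filter level. Neither was tested; with no filter the adjusted p was 0.859 for Cp and 0.633 for Orm1.

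Slpi encodes an inhibitor of neutrophil elastase and other serine proteases, secreted by epithelium. Its brightest probe set, 161650_at, read 551.5, 525.6 and 626.0 in controls and 683.1, 738.0 and 579.8 in nulls, so that null replicate 3 lay among the controls. The log2 difference was 0.22 (95% interval -0.09 to 0.54, limma adjusted p = 0.455). On 92858_at null replicate 1 stood at 395.9, while the other 2 nulls, at 177.2 and 187.5, were within the control range of 146.7 to 191.1 (log2 difference 0.45, 95% interval -0.26 to 1.15, limma adjusted p = 0.506). On 162333_r_at the groups overlapped as well, between 118.6 and 183.8 in controls and 120.4 and 149.9 in nulls (log2 difference -0.10, 95% interval -0.63 to 0.42). The last, 162329_r_at, was at most 49.8 and was not tested.

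**Figure D2:**
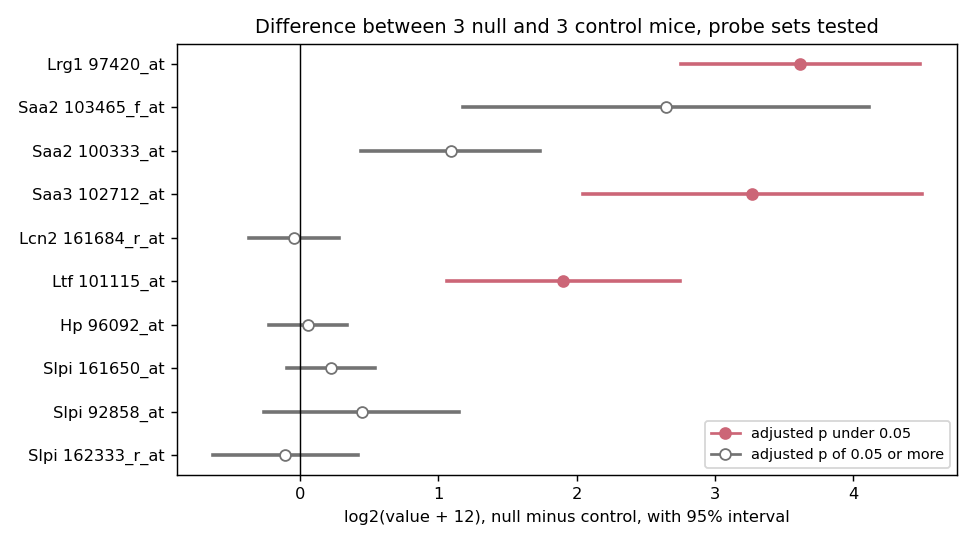
Difference between null and control on the log2(value + 12) scale for the 10 probe sets tested, as the limma estimate with its 95% interval over 3 and 3 mice. Lrg1, Saa3 and Ltf (filled) had an adjusted p under 0.05; the intervals of both Saa2 probe sets lie above 0 although their adjusted p did not pass, and those of Hp, Slpi and Lcn2 161684_r_at hold 0.

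The null mice did not keep 1 order over these genes. Of the 6 probe sets on which the groups were separate, null replicate 1 was the highest null on 4 (both Saa2, Saa3 and Lcn2 160564_at) and null replicate 3 on 2 (Lrg1 and Ltf). The female, null replicate 2, was the lowest null on 4 and the highest on 0. Control replicate 2 was the lowest control on 4. In the test of whether the effect of genotype differs by sex, with 1 female in each group, limma called 0 of 7601 probe sets (236 at an unadjusted p under 0.05) and 0 of the 10 members. The member with the lowest unadjusted p, Saa2 100333_at (0.0188, adjusted p = 0.9998), had a smaller difference in females, by 1.08 on the log2 scale (SE 0.34).

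For each gene that rose, the 3 genes with the most similar values over the 6 mice were sought among 5716 others, by Pearson's r on the log2 scale. These correlations describe 6 points in 2 separate groups. Lrg1 was followed most closely by Tmem97, Sod3 and Jagn1, at an r of 0.995, 0.995 and 0.994. Tmem97, for instance, went from between 1100.6 and 1183.0 in controls to between 1651.4 and 1874.9 in nulls, so the pattern was shared but not its size. Saa3 was followed by Mapt (0.993), Efna1 (0.992) and Aldoa (0.990), and Ltf by Ppy (0.994), Anxa5 (0.994) and Usp5 (0.990).

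Of 41 listed genes of the cytokine and NF-kB signals that act on acute phase genes, 27 were tested by their brightest probe set; 1 rose and 0 fell, where 1.14% of all 5717 genes tested were called higher and 1.99% lower. The 1 gene was Nfkbiz, the atypical inhibitor of NF-kB that works as a co-activator in the nucleus. It was at 808.6, 781.4 and 738.4 in controls and at 1821.1, 1760.8 and 1523.4 in nulls, a log2 difference of 1.12 (SE 0.12, limma adjusted p = 0.0045). The list's median log2 change was 0.11 and that of all genes tested 0.03. Above 0 were 17 of the 27, and 3079 of all 5717 genes tested.

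Socs3, the feedback inhibitor that STAT3 induces, was singled out after its values had been seen. Its brightest probe set was at 417.0, 281.7 and 787.4 in controls and at 1020.0, 1641.5 and 1776.9 in nulls, separate but not past the test (log2 difference 1.64, limma adjusted p = 0.0585). Socs3 passed without control replicate 3 (limma adjusted p = 0.0188) and in males alone (0.0436), which both leave out its highest control. It also passed with sex in the model (0.0357) and with the filter at the 60th percentile (0.0494), and in no other setting. Where Socs3 passed, 2 genes of the list were called, or 3 with sex in the model, where Socs1 passed too (0.0487). Stat3 itself was between 1072.8 and 1280.6 in controls and between 1343.9 and 1412.6 in nulls (adjusted p = 0.354). Cebpb, a C/EBP factor, averaged 946.8 among controls and 1051 among nulls (limma adjusted p = 0.572). The cytokines were dim: Il6 was at most 29.7, Tnf at most 45.1 and Il1b at most 73.1 in any mouse. Every null value of Il6 and of Tnf lay above the controls, but neither was tested (limma adjusted p with no filter 0.349 and 0.524). By their brightest probe sets, 10 of the 34 list genes with a probe set were higher in every null than in every control. These were Nfkbiz, Socs3, Socs1, Stat3, Il6, Tnf, Nfkbia, Myd88, Il1rn and Cd14. Il10rb, Jak2, Lifr and Osmr, 4 genes, all tested, were lower in this way. Of all 12422 probe sets 10.4% were higher in this way, and of the 7601 tested 10.8% were lower.

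Among 28 other proteins that rise in the acute phase, 24 had a probe set and 10 were tested, of which 0 were called in either direction (limma; median log2 change 0.11). Without null replicate 2, 1 was called higher, the protease inhibitor gene Serpina3n (adjusted p = 0.0436). The brightest were the metallothioneins Mt2 and Mt1, which bind zinc and copper, with means of 7859 and 6049 in nulls and 8277 and 5978 in controls; control replicate 1 was the highest mouse for both. Of 10 negative acute phase proteins, whose synthesis falls in liver, 3 were tested and 0 called (median -0.11). Apoa1, the main protein of high density lipoprotein, was between 21037.1 and 26260.8 in controls and between 19591.0 and 24220.6 in nulls. Igf1, a growth factor, averaged 1187 in controls and 1103 in nulls.

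Of 26 receptors, ligands and protease targets of the members, 13 were tested, 0 rose and 1 fell (median log2 change -0.08). That was Scarb1, a lipoprotein receptor that also binds serum amyloid A, at 978.9, 1055.5 and 1058.4 in controls and 619.9, 627.2 and 436.8 in nulls (log2 difference -0.88, SE 0.16, limma adjusted p = 0.0312). The call was lost in 7 of 16 other settings, those without any 1 control mouse or without null replicate 1 or 3 among them (adjusted p up to 0.114). Nfkbiz was called in all 16 (adjusted p up to 0.0448). Of 17 relatives of the members by protein family, 3 were tested and 0 called (median -0.18). They included Heph, a ferroxidase of the gut related to ceruloplasmin, at 2421 ± 480 among controls and 2003 ± 466 among nulls (SD, n = 3, limma adjusted p = 0.561). Ptgds, a lipocalin like Lcn2 that makes prostaglandin D2, was at 1431 and 1250.

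**Figure D3:**
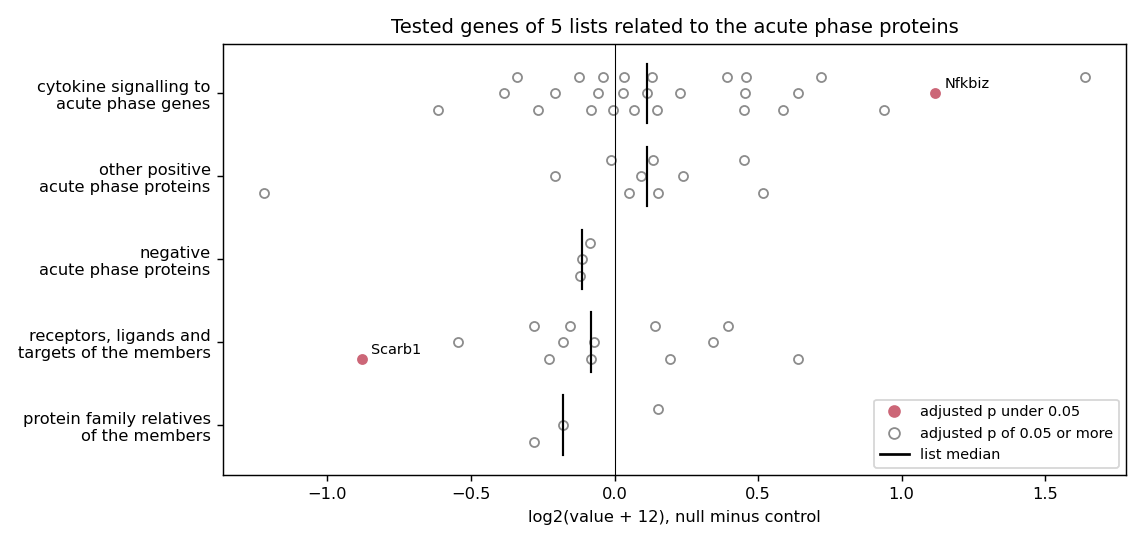
Log2(value + 12) difference between null and control of each tested gene of the 5 lists, 1 circle a gene by its brightest probe set, with the list's median as a black bar. Nfkbiz, at 1.12, and Scarb1, at -0.88, are the 2 filled circles (adjusted p under 0.05); the list medians lie between -0.18 and 0.11.

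Markers of other cells were read beside these genes, in view of the neutrophil granule proteins among the members. Of 20 neutrophil markers 18 had a probe set, 10 of them at or under the filter level in every mouse by their brightest probe set. Their summed level was between 1596 and 2679 in controls and between 2364 and 2806 in nulls. Of the 18, 3 were higher in every null than in every control by that probe set, where 10.4% of all probe sets were. They were S100a8 (26.9 to 61.3 in controls, 70.2 to 142.0 in nulls), S100a9 (4.0 to 15.6 and 18.4 to 93.8) and Mpo (30.2 to 53.1 and 57.8 to 74.3), the first 2 the subunits of calprotectin and the last myeloperoxidase. None of these 3 was tested, and with no filter their limma adjusted p was 0.316, 0.249 and 0.402. Of the 18 markers 4 were tested and 0 were called. Elane, neutrophil elastase, averaged 191.6 ± 12.1 among controls and 171.6 ± 20.4 among nulls (SD, n = 3), Ngp was at most 33.1, and the brightest, Csf3r and Mmp9, overlapped. The part of neutrophils in the values of Ltf, Lcn2 and Lrg1 was not tested.

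The 13 macrophage markers summed to between 13942 and 17014 in controls and 12357 and 13033 in nulls. Without Lyz2, a sum taken after the data had been seen, the groups overlapped, at 8891 to 9572 and 8460 to 9568. Of the 10 tested, 2 were higher in every null than in every control, Cd14 (mean 831.7 and 1139, limma adjusted p = 0.122) and Cd68 (352.0 and 418.0, adjusted p = 0.397), and 3 were lower, Lyz2, Cx3cr1 and Fcgr1, where 13.1% of all probe sets tested were higher in this way and 10.8% lower. Of the 10 tested the lysozyme gene Lyz2 fell (6598 ± 1342 to 3687 ± 216, SD, n = 3, limma adjusted p = 0.0437), a call lost in 10 of 16 other settings, those without control replicate 1 or 3 or any 1 null mouse among them. Of the 16 liver markers with a probe set, 11 were at or under the filter level in every mouse; Alb, albumin, was between 38.9 and 84.6 in controls and between 69.2 and 103.0 in nulls, and the list summed to 1324 to 1420 and 1115 to 1457. Of these 16, 3 were tested and 0 called. The brightest tested were Serpina1c, at 433.3 and 298.3, and Cyp2e1, at 283.4 and 316.2 (means of controls and nulls). Serpina1c overlapped, while each null value of Cyp2e1 was above the controls, the nearest pair at 306.8 and 301.5. By their brightest probe sets 2 of the 16 were higher in every null, Cyp2e1 and the untested Fgb, where 10.4% of all probe sets were. The untested Ambp, 1 gene, was lower in every null, at 23.2 to 116 in controls and 5.1 to 19.8 in nulls. Of all probe sets tested 10.8% were lower in this way. The 7 pancreas markers summed to 4213 to 4670 in controls and 3675 to 5469 in nulls, with Clps at 1952 and 2231 and Ctrb1 at 1199 and 1081. Of 5 adipocyte markers tested Lipe, hormone-sensitive lipase, fell (531.2 ± 82.3 to 293.0 ± 16.1, SD, n = 3, limma adjusted p = 0.0312), a call lost in 8 of 16 other settings, those without control replicate 1 or 2 or any 1 null mouse among them, and the 10 with a probe set summed to 2067 to 2345 and 1934 to 2089. The 4 red cell markers overlapped, at 1508 to 3458 and 1774 to 2805, with Hba-a1 at 2122 and 1996 and Slc4a1 at 151.6 and 152.3. The 12 epithelial markers were tested and 0 were called; the brightest, Lgals4 and Krt20, were at 21304 and 15585 in controls and 21896 and 14360 in nulls. Fabp2, a fatty acid binding protein of enterocytes, was lower in every null than in every control without passing the test, at 18085 ± 1620 and 7991 ± 4065 (SD, n = 3; log2 difference -1.31, 95% interval -2.10 to -0.52, limma adjusted p = 0.0938). The 12 summed to between 85722 and 114074 in controls and between 86362 and 100030 in nulls. How far these cells account for the members' values was not tested.

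**Figure D4:**
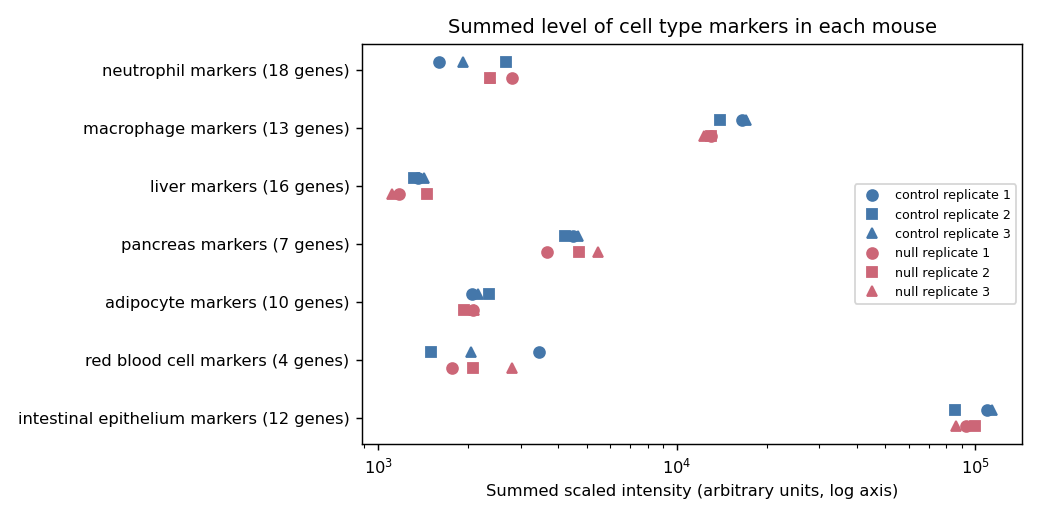
Summed scaled intensity of each list of cell type markers in each mouse (log axis, arbitrary units; brightest probe set of each gene), controls in blue above nulls in red. The groups overlap in every list except that of macrophages, where the 3 null sums of 12357 to 13033 lie below the control sums of 13942 to 17014; without Lyz2 they overlap too.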

How the data were processed

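Per the labels, total RNA of the small intestine was prepared with TRIzol from 1 mouse per array. The authors deposited 1 intensity per probe set and mouse, linear and above 0; equal trimmed means show that arrays were scaled beforehand. The software used is not stated in any label or header. Probe sets were named from the platform annotation of the array. The 66 control probe sets were set aside, leaving 12422, of which 10833 had 1 symbol. Values were used as deposited, turned into log2(value + 12), 12 being the 10th percentile, filtered and compared with limma 3.58.1 in R 4.3.3 (eBayes with a variance trend, two-sided), after the function was checked on simulated data. With the lower group's log2 mean at or below the filter level, the fold is a bound: the higher group's log2 mean against that level. No pairing or batch is labelled.

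The members and lists were chosen with earlier results of these data known. Named genes were the members, Cftr, up to 4 called genes of each list or, where none was called, the 2 brightest tested, and the most similar genes. Socs3, Stat3, Cebpb, Il6, Tnf, Il1b, Il10rb, Jak2, Lifr, Osmr, Nfkbia, Myd88, Il1rn, S100a8, S100a9, Mpo, Elane, Ngp, Alb, Fgb, Ambp, Socs1, Serpina3n, Cd14, Cd68, Cx3cr1, Fcgr1 and Fabp2 were named after their values were seen. Other settings were quantile or median scaling, pseudocounts of 3 and 48, a filter at the 60th percentile or none, a term for sex, the 4 males alone, a constant prior variance or a robust one, each mouse left out, and for lists the mean over probe sets.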

Additional observations from a re-analysis of the deposited data

How the results depend on the processing

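The number of arrays limits the precision of these values, and dim probe sets give only bounds. The 3 members called were the same 3 (Lrg1, Saa3 and Ltf) with arrays quantile normalized or set to 1 median, with a pseudocount of 3 or 48, without the filter, and with eBayes without a trend or with robust variance. With the filter at the 60th percentile 1 was called, Lrg1, because Saa3 and Ltf were no longer tested. With sex in the model Lrg1, Saa3 and Saa2 103465_f_at were called. In males alone these and Saa2 100333_at were called, 4 probe sets in all. Leaving out 1 mouse gave 1 to 4 member probe sets called. There was 1 (Lrg1) without null replicate 1 or null replicate 3, and 2 (Lrg1 and Saa3) without control replicate 1 or null replicate 2. Without control replicate 3 there were 4, those of Lrg1, Saa3 and both of Saa2, and Ltf was not among them. In every setting 0 members were called lower, and 0 differed by sex with no filter or without a trend. Over all probe sets, 228 were called; males alone gave 135, eBayes without a trend 141, and leaving out 1 mouse 52 to 182 (52 without null replicate 1, 76 without control replicate 1, 84 without null replicate 3). Of the counts of called list genes under other settings, 158 stayed the same and 12 moved. Most of the 158 were a count of 0 that stayed at 0. The counts that were not 0, cytokine signalling genes higher and receptor, ligand and target genes lower, gave nearly all of the moves. The macrophage sum without Lyz2 was added after the data had been seen. The causes of these changes were not tested. Called members kept their direction in every setting that tested them.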

Other observations

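Further serum amyloid A and orosomucoid genes, which the rule left out, were dim except Orm3. Saa4, the constitutive serum amyloid A, was between 8.4 and 37.7 in controls and between 16.9 and 18.0 in nulls, and the pseudogene Saa-ps between 11.7 and 32.9 and between 13.1 and 37.1. A probe set that carries both Orm1 and Orm2 as symbols was at most 34.4 in any mouse, and Orm2 at most 20.7. Orm3 was the brightest of the orosomucoids, averaging 138.0 ± 59.7 among controls and 152.7 ± 62.8 among nulls (SD, n = 3; log2 difference 0.15, 95% interval -0.83 to 1.13, limma adjusted p = 0.894).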
